A study of Caenorhabditis elegans with 31 samples.

Results

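The comparison sets F3 worms against F1 worms within batch 2 of a single-nucleus RNA series of Caenorhabditis elegans, and its members were chosen by their labels alone. It holds 8 of the 31 libraries, 4 of F3 worms and 4 of F1 worms, with 20757 of the 85180 nuclei of the series. In each generation 2 libraries carry the label ethanol0.05 (0.05% ethanol) and 2 the label water, so treatment entered the model as a covariate. All 4 groups (F3 ethanol0.05, F3 water, F1 ethanol0.05 and F1 water) share the JK560 genotype, fog-1(q253), with the mutation on chromosome I, and the submitters describe a complete germline without fertilised embryos in these worms. Every group was fed OP50 bacteria at 20 °C, and L1 larvae collected through a filter were moved to 25 °C in the generation that was sequenced. The protocols give different lengths for that culture, so no age is stated here. Each library came from unsorted nuclei of a 30 µL pellet of pooled whole worms, and no label says whether 2 libraries of a group were grown as separate cultures. The p-values below therefore measure only the spread between these libraries, which may be technical.

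The gene fog-1 encodes an RNA-binding protein that germ cells need to become sperm, so a worm without its function makes oocytes only. Oocytes are loaded with maternal RNA, and in a fertilised embryo an early wave of short-lived transcripts from the embryo's own genome follows. The names vet (very early transcript) and sdz (SKN-1 dependent zygotic) come from that wave, while fbxb and fbxc genes encode F-box proteins, a large worm group that includes adaptors bringing substrates to ubiquitin ligases.

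The 4 F3 libraries held 1535 to 4810 nuclei and 6103941 to 25500166 UMIs (unique molecular identifiers, 1 per captured RNA molecule). The 4 F1 libraries held 1599 to 3411 nuclei and 4395179 to 10729660 UMIs. Median UMIs per nucleus ranged over 1229.5 to 2149.5 in F3 and over 1204 to 1434.5 in F1 libraries (exact permutation within treatment, two-sided, p = 0.111, where the smallest possible p is 0.0556). Ribosomal RNA took 0.353% to 1.33% of UMIs in F3 libraries and 0.193% to 0.294% in F1 libraries, with no overlap (exact permutation p = 0.0556, 0.333 after adjustment over the quality measures). The water F3 library with replicate number 2 stood apart at 1.33%. The same cell barcode occurred in more than 1 of the 8 libraries for 343 barcodes, mostly among libraries with replicate number 1. These covered 1060 nuclei and 19.1% of all UMIs. The copies with the fewest UMIs, 1 for each such barcode, held 0.465% of all UMIs. Barcodes found in more than 2 libraries have further copies outside that share. Of 336 shared barcodes with more than 1 copy among the clustered nuclei, 55.1% had these copies in 1 cluster, against 6.93% for 2 nuclei drawn at random. Values of 4 libraries are always given in the order ethanol0.05 replicate 1, ethanol0.05 replicate 2, water replicate 1 and water replicate 2. In CPM (counts per 1000000 UMIs of a library), transcripts of fog-1 itself stood at 11.3, 7.65, 10.5 and 10.1 CPM in F3 libraries and at 18.5, 9.74, 13.2 and 11.1 CPM in F1 libraries, and since every library carries the same allele these levels check no label. Of 15 sperm and spermatocyte markers, 14 had counts, with msp-31 at 0, and their summed level was 3.24 to 10.2 CPM in F3 and 3.91 to 11.6 CPM in F1 libraries.

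In F3 worms 48 genes had less RNA than in F1 worms of the same batch, among them 13 F-box genes of the fbxb family, 2 vet genes, 3 of 22 sdz genes and genes of a chitinase, a lectin and a caveolin. Another 7 genes had more, among them genes of a collagen, a peptide transporter and a fatty acid desaturase. In UMI counts summed per library, 55 of 13786 genes tested passed an adjusted p below 0.05 (edgeR's quasi-likelihood test with Benjamini-Hochberg adjustment), which is 0.399% of the genes. Of these, 7 were higher in F3 (0.0508% of genes tested) and 48 lower (0.348%). The log2 changes, F3 minus F1, ran over 0.78 to 1.18 among the higher genes and over -4.41 to -1.01 among the lower ones. In all 55 the 4 F3 libraries lay on 1 side of the 4 F1 libraries, as did 591 genes tested on the higher side (4.29%) and 763 on the lower side (5.53%). Over all genes tested, 1937 had an unadjusted p below 0.05 (14.1%), 7061 had a log2 change below 0 (51.2%) and the median was -0.01.

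A second tool, DESeq2, called 500 genes, 184 higher and 316 lower, including all 55. With edgeR, leaving out ethanol0.05 F3 replicate 1, ethanol0.05 F3 replicate 2, water F3 replicate 1, ethanol0.05 F1 replicate 1 or water F1 replicate 1 left 0 genes, while 1288 to 1805 still had an unadjusted p below 0.05 in each of these fits. Without water F3 replicate 2, 1 gene was called. Without ethanol0.05 F1 replicate 2 the count was 163 and without water F1 replicate 2 it was 38 higher and 81 lower. The libraries with replicate number 1 alone gave 3370 genes and those with number 2 alone gave 0, with 1298 at an unadjusted p below 0.05. All 55 genes kept their direction in each of these fits. Since their F3 and F1 libraries did not overlap, this was all but fixed in advance. Removing the nuclei with a shared barcode, an alternative chosen after seeing the data, left 26 genes, of which 25 were among the 55. The largest axis of difference between the libraries did not divide the generations (first principal component, 48.4% of the variance among genes averaging at least 20 CPM). On it the F1 libraries with replicate number 1 stood at -29.7 (ethanol0.05) and -25.8 (water). Those with number 2 stood at 8.44 and 8.49, within the F3 range of -1.18 to 19.5.

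**Figure D1:**
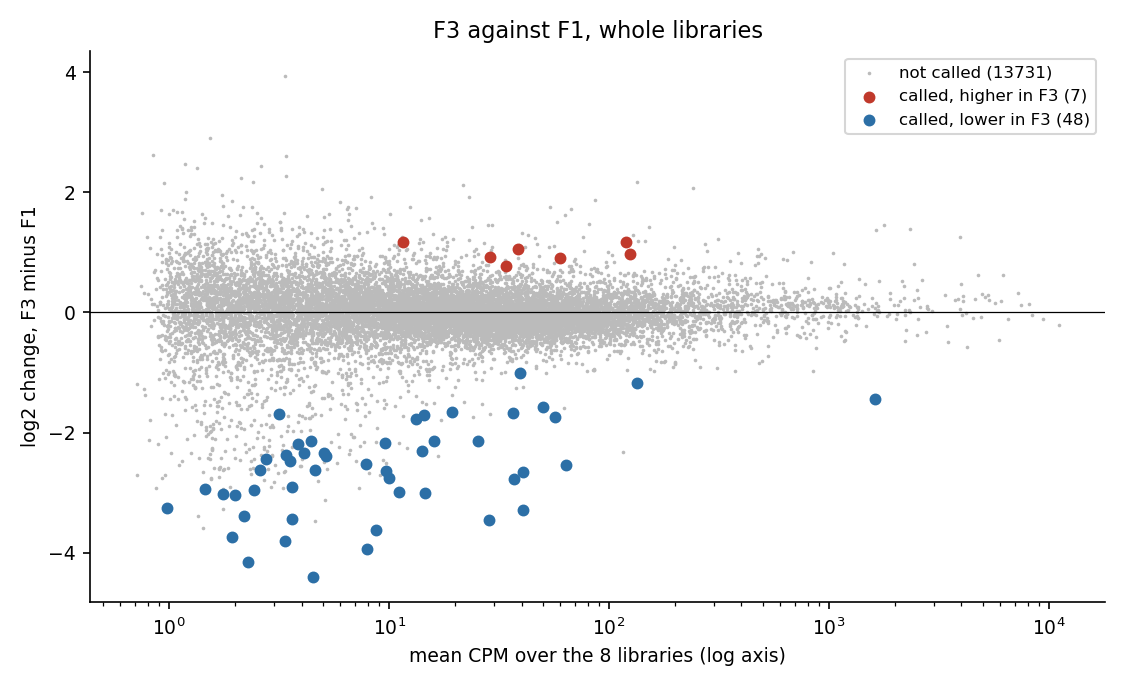
Log2 change (F3 minus F1) of each of the 13786 genes tested, on the y axis, against its mean level over the 8 libraries in CPM on a log x axis, with called genes in red (higher in F3) and blue (lower in F3). The 48 lower genes reach further from 0, down to -4.41, than the 7 higher genes, which end at 1.18.

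**Figure D2:**
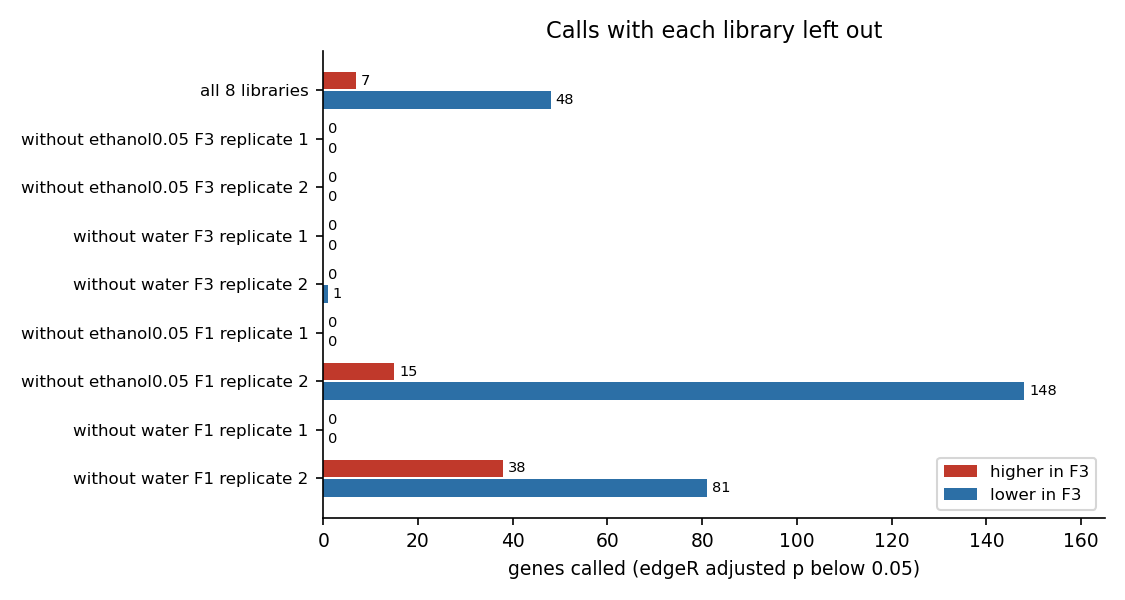
Number of genes called at an edgeR adjusted p below 0.05 (x axis from 0) with all 8 libraries and with each library left out, red bars for genes higher in F3 above blue bars for genes lower in F3. The bars stand at 7 higher and 48 lower with all libraries, at 0 in both directions for 5 of the 8 libraries left out, and at 15 and 148 without ethanol0.05 F1 replicate 2.

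The fallen genes named first averaged at least 20 CPM in 1 generation, and scarcer ones, among them fbxb-10, dpy-14 and C08F1.10, had log2 changes further below 0. Genomic positions are those of the WBcel235 annotation, matched by gene identifier.

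The gene cht-1 (WBGene00000503, chromosome X, 3397613 to 3400017) encodes a chitinase. It had 6.03, 5.16, 4.98 and 2.90 CPM in the F3 libraries, against 79.3, 22.4, 78.9 and 27.6 CPM in the F1 libraries. Every F3 library was below every F1 library, and the F1 libraries with replicate number 1 were the highest. Its log2 change was -3.46 with a standard error of 0.473 (edgeR adjusted p = 0.0348), an F1 level 11.02 times that of F3. The annotation places slcf-2 on the other strand over cht-1. No source used here states whether the counting used strand, so whether it kept the reads of such overlapping genes apart is not known here.

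The C-type lectin gene clec-266 (chromosome X, 6617393 to 6622915) had 11.5, 10.8, 6.73 and 3.19 CPM in F3 libraries, against 131, 19.7, 96.5 and 47.5 CPM in F1 libraries. The groups did not overlap, though the lowest F1 library, ethanol0.05 replicate 2, lay near the highest F3 library. The log2 change was -3.29 ± 0.571 (standard error, edgeR adjusted p = 0.0484), and kqt-1 overlaps it on the other strand. The caveolin gene cav-1 (chromosome IV, 9772510 to 9773559), whose product coats membrane pits and is made in the worm germline, had 24.4, 20.1, 18.04 and 13.2 CPM in F3 libraries, against 181, 42.9, 142 and 69.8 CPM in F1 libraries. Its F1 libraries spread widely, with the replicate number 1 libraries highest, and none reached down to F3 (log2 change -2.54 ± 0.417, edgeR adjusted p = 0.0427).

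Among genes whose products have no role given in the files, C35E7.5 (chromosome I, 10823363 to 10828421) had 11.3, 9.96, 8.61 and 7.91 CPM in F3 libraries, against 92.1, 25.7, 96.0 and 44.9 CPM in F1 libraries. The F3 libraries were close together and the F1 libraries were not (log2 change -2.78 ± 0.403, edgeR adjusted p = 0.0348). Next to it on the chromosome, 18350 bases away, lies vet-2 (10846772 to 10850103), which had 6.94, 8.18, 5.31 and 6.61 CPM in F3 libraries, against 29.6, 12.15, 25.7 and 20.7 CPM in F1 libraries. This very early transcript fell by 1.72 on the log2 scale (standard error 0.288, edgeR adjusted p = 0.0451). The gene C08F1.6 (chromosome II, 1787217 to 1788187) had 3.92, 3.38, 3.71 and 1.74 CPM in F3 libraries, against 35.1, 11.1, 39.3 and 17.6 CPM in F1 libraries, a log2 change of -3.01 ± 0.448 (edgeR adjusted p = 0.0348). Its neighbour C08F1.10, 907 bases away, also fell, with a log2 change of -3.94.

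A different spread over the F1 libraries marked the neighbours F56D6.8 and dct-8 on chromosome IV, which lie 639 bases apart on opposite strands. The first, F56D6.8 (3894058 to 3894430), had 4.22, 13.3, 7.02 and 20.8 CPM in F3 libraries, against 61.5, 61.0, 66.6 and 90.5 CPM in F1 libraries. The second, dct-8 (3895070 to 3895506), had 5.28, 8.004, 6.90 and 17.9 CPM in F3 libraries, against 45.4, 42.4, 41.4 and 35.7 CPM in F1 libraries. Here the F1 libraries with replicate number 1 were not set above the others, and the highest F3 library was water replicate 2 for both genes. The log2 changes were -2.66 ± 0.382 for F56D6.8 (edgeR adjusted p = 0.0348) and -2.15 ± 0.331 for dct-8 (edgeR adjusted p = 0.0388).

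The Notch ligand family gene dsl-2 (chromosome IV, 1202651 to 1204970) had 9.05, 4.98, 6.20 and 3.56 CPM in F3 libraries, against 30.8, 16.8, 30.8 and 25.3 CPM in F1 libraries. The groups did not overlap, and the log2 change was -2.14 ± 0.311 (edgeR adjusted p = 0.0348). The gene skr-8 (chromosome IV, 17165250 to 17165834), of the Skp-related group that joins F-box proteins to ubiquitin ligases, had 8.15, 3.02, 3.88 and 3.99 CPM in F3 libraries, against 35.1, 12.7, 29.1 and 17.2 CPM in F1 libraries (log2 change -2.31 ± 0.392, edgeR adjusted p = 0.0451). Again the F1 libraries with replicate number 1 were highest. The remaining genes named by the rule were T09B4.5, with a log2 change of -1.78 ± 0.284, and C01G6.3, with -1.74 ± 0.294 (edgeR adjusted p = 0.0406 for T09B4.5 and 0.0451 for C01G6.3). For C01G6.3, C01G6.4 overlaps on the other strand.

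**Figure D3:**
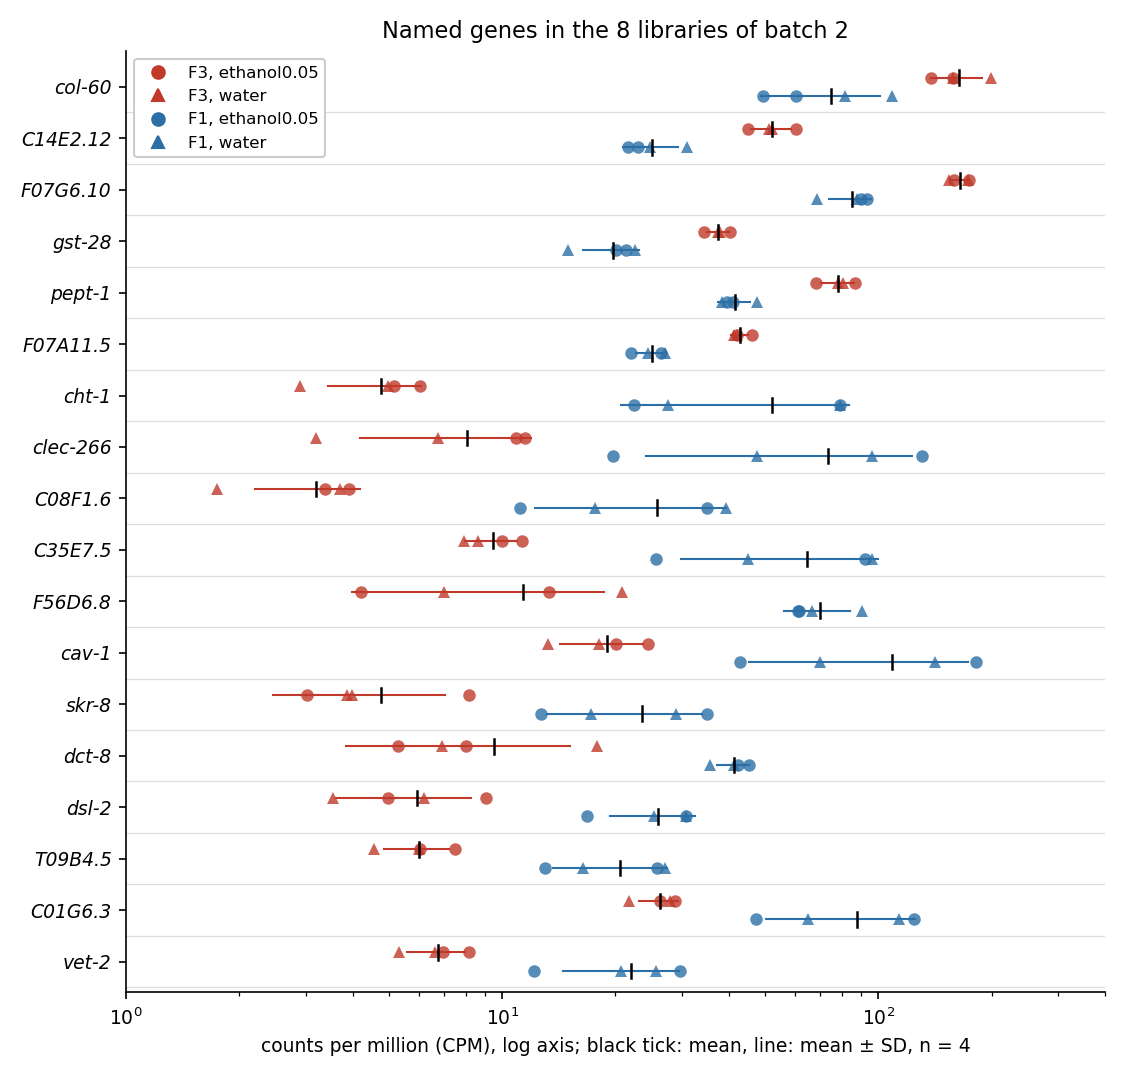
Level of the 18 named genes in each of the 8 libraries, in CPM on a log x axis, with F3 libraries in red above F1 libraries in blue, circles for ethanol0.05, triangles for water, and a tick and line for the mean ± SD of 4 libraries. The naming rule required the F3 points of each gene to lie to 1 side of its F1 points. For cht-1 the F3 points end at 6.03 while the F1 points begin at 22.4.

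The genes that rose in F3 moved less, but their F3 libraries lay close together. The cuticle collagen gene col-60 (chromosome I, 7105302 to 7106926) had 158, 138, 200 and 158 CPM in F3 libraries, against 49.5, 60.3, 81.7 and 109 CPM in F1 libraries. All F3 libraries were above all F1 libraries, and the log2 change was 1.16 ± 0.173 (edgeR adjusted p = 0.0348). The gene pept-1 (chromosome X, 6456872 to 6461767), which encodes the intestinal transporter of small peptides, had 86.6, 68.1, 80.4 and 78.0 CPM in F3 libraries, against 41.03, 39.5, 38.5 and 47.5 CPM in F1 libraries, an F3 level 1.88 times that of F1. Neither generation spread far, and the log2 change was 0.91 ± 0.134 (edgeR adjusted p = 0.0348).

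The glutathione S-transferase gene gst-28 (chromosome II, 15166194 to 15167577) had 40.4, 34.3, 37.4 and 37.9 CPM in F3 libraries, against 20.1, 21.4, 14.9 and 22.6 CPM in F1 libraries (log2 change 0.93 ± 0.159, edgeR adjusted p = 0.0462). Members of its family are similar in sequence, and no source used here states how reads matching several of them were counted. The stearoyl-CoA desaturase gene fat-7 (chromosome V, 7151353 to 7153146) had 15.1, 15.7, 18.2 and 15.1 CPM in F3 libraries, against 5.93, 9.22, 6.15 and 6.84 CPM in F1 libraries, with a log2 change of 1.18 ± 0.204 (edgeR adjusted p = 0.0484). A small nucleolar RNA gene, C14E2.12 (chromosome X, 1831628 to 1831762), had 45.1, 60.5, 51.3 and 52.2 CPM in F3 libraries, against 23.0, 21.6, 24.7 and 31.0 CPM in F1 libraries (log2 change 1.06 ± 0.154, edgeR adjusted p = 0.0348). The last 2 higher genes, for which the files give no role, were F07G6.10, with a log2 change of 0.96 ± 0.132, and F07A11.5, with 0.78 ± 0.130. For F07G6.10 the F3 libraries spanned 154 to 174 CPM and the F1 libraries 68.9 to 93.3 CPM.

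Of the 48 lower genes, 20 belong to 4 families. They are 13 fbxb genes of 69 tested, 2 fbxc genes of 26, 3 sdz genes of 22 and 2 vet genes of 3, a grouping drawn after their values were seen. Of 206 members 120 were tested, and the filter on low counts did not require counts in both generations. A scarce member could thus be tested through its F1 libraries alone, so the family values below are no separate support. Over these families together, 20 of 120 genes tested fell and 0 rose, 94 had an unadjusted p below 0.05, 114 had a log2 change below 0, and the median log2 change was -2.15, beside -0.01 over all genes tested. DESeq2 called 75 of them lower and 0 higher. That median stayed between -2.38 and -1.70 when single libraries were left out, and was -1.61 in the libraries with replicate number 2 alone. Members of these families are close copies of each other, so single genes are uncertain where reads match several copies.

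Summed over the fbxb family, the level was 127, 80.6, 119.2 and 77.6 CPM in F3 libraries, against 528, 250, 556 and 248 CPM in F1 libraries. Both generations were higher in their replicate number 1 libraries, and the lowest F1 library was above the highest F3 library. The fbxc family summed to 162, 108, 130 and 122.7 CPM in F3 libraries, against 224, 163, 244 and 164 CPM in F1 libraries, where the highest F3 value nearly met the lowest F1 values. The 3 vet genes summed to 17.5, 14.7, 11.8 and 11.8 CPM in F3 libraries, against 64.4, 31.1, 58.6 and 46.0 CPM in F1 libraries, with a clear gap. For the sdz family the sums overlapped, at 293 to 362 CPM in F3 and 317 to 425 CPM in F1 libraries. Nuclei of cluster 19, an unnamed cluster led by fbxb-94 and sdz-29, made up 2.101%, 0.726%, 0.389% and 0.714% of F3 libraries, against 2.22%, 1.54%, 3.32% and 1.29% of F1 libraries. These shares overlapped, and since the nuclei were clustered on these genes among others, they are no measure apart from the genes' levels.

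Single members were scarce. The gene fbxb-10 had the lowest log2 change of all called genes, -4.41 ± 0.709 (edgeR adjusted p = 0.0414), from 2, 0, 18 and 5 counts in F3 libraries and 48, 37, 129 and 34 counts in F1 libraries. The gene fbxb-66 (chromosome I, 13423997 to 13425148) had 1.66, 0.534, 1.75 and 1.02 CPM in F3 libraries, against 22.3, 8.62, 25.9 and 7.70 CPM in F1 libraries, without overlap. The very early transcript vet-6 (chromosome I, 13269984 to 13272781) had 3.77, 2.49, 2.04 and 1.38 CPM in F3 libraries, against 15.5, 7.67, 15.6 and 14.5 CPM in F1 libraries (log2 change -2.52 ± 0.362, edgeR adjusted p = 0.0348). Near it on the same chromosome, sdz-30 and sepa-1 lie 6334 bases apart, and both fell.

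**Figure D4:**
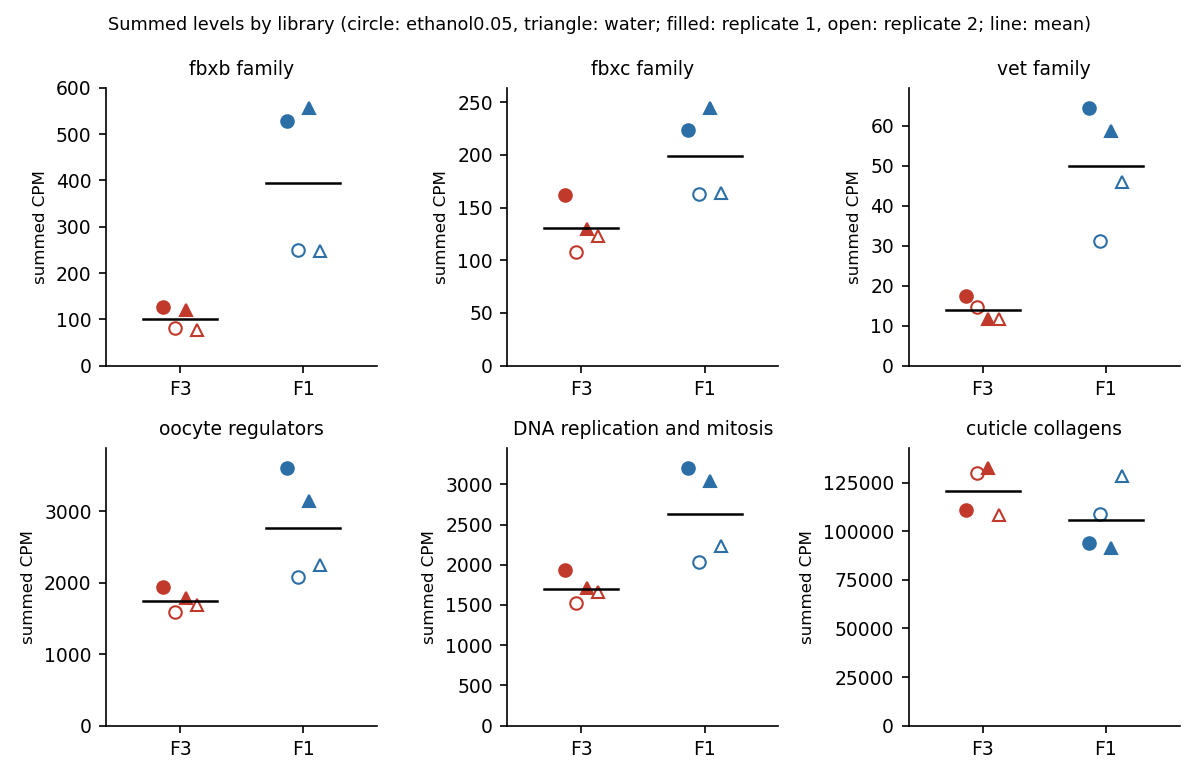
Summed level in CPM (y axis from 0) of 3 early-embryo or F-box families, 2 gene lists of the germline and the cuticle collagens in each library, F3 left of F1, with circles for ethanol0.05, triangles for water, filled marks for replicate number 1, open marks for number 2 and a line for the mean. The fbxb sums span 77.6 to 127 CPM in F3 and 248 to 556 CPM in F1 libraries, while the collagen sums of the generations overlap.

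Genes that act in the early embryo were also among the fallen, and here too a scarce gene could be tested through its F1 libraries alone. Of 9 tested genes on a list of early zygotic regulators, written after values were seen, 2 fell (dsl-2 and ceh-51), 8 had a log2 change below 0 and the median was -1.53, with a range of -1.84 to -0.31 when single libraries were left out. The homeobox gene ceh-51 (chromosome V, 18874133 to 18875982), which acts in the mesoderm lineage of the embryo, had 4.68, 2.67, 1.71 and 2.03 CPM in F3 libraries, against 18.9, 7.67, 21.9 and 17.5 CPM in F1 libraries (log2 change -2.65 ± 0.422, edgeR adjusted p = 0.0406). The groups did not overlap, and emb-4 overlaps ceh-51 on the other strand. A pair of genes that act in the autophagy of germ granule proteins in embryos, sepa-1 and epg-2, fell by 2.17 and 1.68 on the log2 scale, and epg-2 had 18.9, 17.4, 15.8 and 17.4 CPM in F3 libraries, against 65.4, 32.4, 77.6 and 48.2 CPM in F1 libraries. The linker histone gene his-24 had 65.9, 108, 66.2 and 88.9 CPM in F3 libraries, against 204, 151, 203 and 185 CPM in F1 libraries (log2 change -1.18 ± 0.193, edgeR adjusted p = 0.0427). The RNA-binding protein gene sup-26 and the nuclear receptor gene sex-1, which takes part in counting X chromosomes, fell by 1.01 and 1.66 on the log2 scale.

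By chromosome, 16 of the 48 lower genes lie on chromosome II (33.3%, where 17.5% of the genes tested lie), 10 on I, 7 on IV, 6 on V, 5 on X and 4 on III. Among them were 8 neighbouring pairs no more than 22343 bases apart. How many such pairs as many other tested genes would hold was not tested. The pairs fbxb-26 with fbxb-18, fbxb-42 with K05F6.4 and fbxb-108 with sdz-9, at 3131, 4816 and 6322 bases apart, all lie on chromosome II.

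In lists of genes that oocytes carry the log2 changes were below 0, but no member passed the test in edgeR. All 21 tested oocyte regulators had a log2 change below 0, with a median of -0.56, and 15 had an unadjusted p below 0.05, but edgeR called 0 and DESeq2 5, all lower. Summed, they reached 1937, 1586, 1790 and 1685 CPM in F3 libraries, against 3600, 2076, 3135 and 2244 CPM in F1 libraries, with every F3 library below every F1 library and the F1 libraries with replicate number 1 highest. The gene nos-2, a germline translation regulator, had the smallest adjusted p of them (0.105 by edgeR, log2 change -0.78 ± 0.187). The oocyte maturation gene oma-2 had 112, 100, 118.9 and 101 CPM in F3 libraries, against 305, 130, 256 and 161 CPM in F1 libraries (log2 change -0.98 ± 0.253, edgeR adjusted p = 0.127), and spn-4 had a log2 change of -0.83 ± 0.211 (edgeR adjusted p = 0.121). The 12 oocyte markers of the cell type lists had a summed level of 1605 to 1946 CPM in F3 and 2137 to 3746 CPM in F1 libraries, with none at 0. The part of these levels in the fall of the fbxb, vet and sdz genes was not tested, and in summed libraries fewer cells of a type and less RNA per cell cannot be told apart.

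The same held for cell division genes. Of 26 DNA replication and mitosis genes, 24 had a log2 change below 0, 18 had an unadjusted p below 0.05, edgeR called 0 and DESeq2 4, all lower, and the median was -0.52. The cyclin gene cyb-1 came nearest, with 60.05, 54.2, 60.2 and 55.8 CPM in F3 libraries, against 150, 78.2, 133 and 90.6 CPM in F1 libraries, without overlap (log2 change -0.97 ± 0.208, edgeR adjusted p = 0.0804). All 16 genes of the eggshell and permeability barrier had a log2 change below 0 (median -0.40), with 0 called by edgeR, 2 by DESeq2 and 8 at an unadjusted p below 0.05. The 24 meiotic axis and synapsis genes had a median of -0.12, with 0 called by either tool and 2 at an unadjusted p below 0.05. Summed markers of the mitotic to pachytene germline overlapped, at 821 to 1073 CPM in F3 and 837 to 1170 CPM in F1 libraries. The medians of the oocyte, division and eggshell lists were below 0 under each scaling tried and without each library, and that of the meiotic list was 0.06 in the libraries with replicate number 2 alone.

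Genes tied to inheritance between generations did not pass the test in edgeR. Of 24 germline small RNA genes edgeR called 0 and DESeq2 1 (hrde-1), 5 had an unadjusted p below 0.05 and the median log2 change was -0.14. The nuclear Argonaute gene hrde-1, required for heritable silencing, had 26.1, 26.7, 30.6 and 27.95 CPM in F3 libraries, against 53.8, 34.9, 45.3 and 41.3 CPM in F1 libraries. Its groups did not overlap, and its log2 change of -0.65 ± 0.157 had an edgeR adjusted p of 0.106. Neither edgeR nor DESeq2 called any of 24 chromatin methylation genes (median -0.18, 4 at an unadjusted p below 0.05) or of 15 P granule components (median -0.25, 3 at an unadjusted p below 0.05). In the libraries with replicate number 2 alone the small RNA and chromatin medians were 0.02 and 0.01.

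Cuticle collagens went both ways. Of 137 tested, col-60 rose and col-95 and dpy-14 fell, while 36 had a log2 change below 0 and the median was 0.41, with a range of 0.29 to 0.62 when single libraries were left out and 0.10 in the libraries with replicate number 2 alone. The abundant col-95 (chromosome III, 11703994 to 11705091) had 773, 881, 1047 and 779 CPM in F3 libraries, against 2678, 1500, 3303 and 2007 CPM in F1 libraries. The groups did not overlap (log2 change -1.44 ± 0.233, edgeR adjusted p = 0.0420). DESeq2 called 14 collagen genes higher and 3 lower. The collagen gene dpy-14 was scarce, with 3, 0, 5 and 3 counts in F3 libraries and 33, 19, 45 and 21 counts in F1 libraries. Collagen genes resemble each other closely, and how reads matching several of them were counted is not stated.

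The remaining lists held few calls. The antibacterial peptide gene abf-2 fell, with 14.9, 25.4, 27.5 and 33.9 CPM in F3 libraries, against 80.7, 66.9, 89.8 and 61.6 CPM in F1 libraries (log2 change -1.58 ± 0.219, edgeR adjusted p = 0.0348), as the only gene that edgeR called of 82 antimicrobial genes, where DESeq2 called 6, all lower. It overlaps C50F2.2. Of 90 C-type lectin genes 2 fell in edgeR, clec-266 and the scarcer clec-196, and DESeq2 called 1 higher and 3 lower. In the lists of 35 fatty acid genes and 148 detoxification genes, fat-7 and gst-28 were edgeR's only calls, while DESeq2 called 4 fatty acid genes higher, and 4 detoxification genes higher and 3 lower. In the list of 41 histone genes edgeR called his-24 alone, and DESeq2 called 3 higher and 2 lower.

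The 6 heat-inducible chaperone genes tested all had a log2 change above 0 (median 0.90), with 2 at an unadjusted p below 0.05 and 0 called by edgeR or DESeq2. Their sums were 231, 56.4, 236 and 144 CPM in F3 libraries, against 120, 126.3, 108 and 94.3 CPM in F1 libraries, so that 1 F3 library lay below every F1 library. The gene F44E5.5 of this group had the smallest adjusted p (edgeR, 0.242), and F44E5.4 is a near-identical copy, so reads could match both. Of 14 alcohol and aldehyde metabolism genes 0 were called by either tool and 0 had an unadjusted p below 0.05 (median 0.03). Muscle contractile genes had 1 of 29 below 0, a median of 0.31 and 5 at an unadjusted p below 0.05, with 0 calls by edgeR and 2 by DESeq2, and the giant muscle kinase gene unc-22 came nearest (291, 335, 293 and 589 CPM in F3 libraries, against 135, 174, 151 and 216 CPM in F1 libraries, edgeR adjusted p = 0.0653). Proteasome genes had 32 of 33 below 0 and a median of -0.19, ribosomal protein genes had 7 of 77 below 0 and a median of 0.13, and each of these lists had 2 genes at an unadjusted p below 0.05 and 0 called by either tool. Neither tool called any of 6 vitellogenins (median -0.07, 1 at an unadjusted p below 0.05), 16 sperm genes (0.10, 0), 24 constitutive and organelle chaperones (-0.06, 2) or 18 pals genes (0.13, 0). By edgeR 0 genes were called, and by DESeq2 1, among 14 mitochondrially encoded genes (median -0.03, 1 at an unadjusted p below 0.05), 17 metallothionein and antioxidant genes (-0.05, 3), 129 neuropeptide genes (0.03, 9) and 5 uterine secretory genes (-0.40, 1). None of the 15363 piRNA loci in the files had counts enough to be tested.

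**Figure D5:**
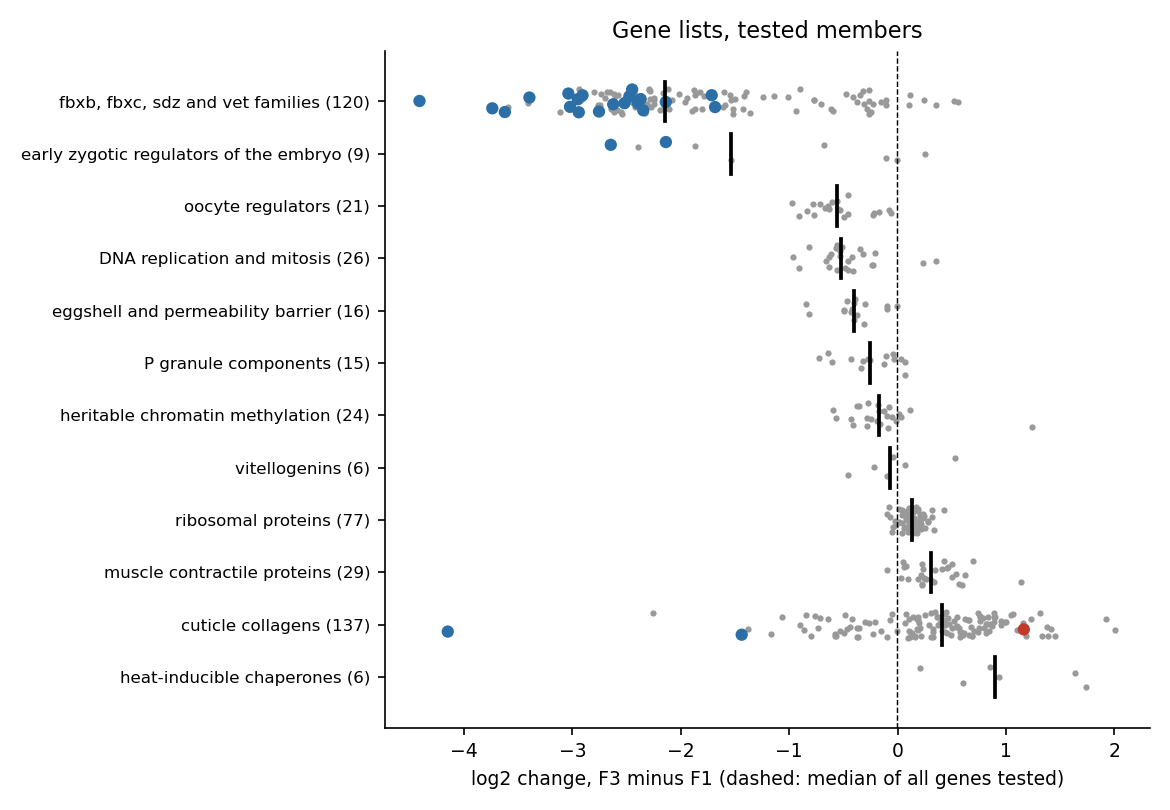
Log2 change (F3 minus F1) of the tested members of each gene list, a row per list, with called genes marked and the median of the list shown. The fbxb, fbxc, sdz and vet families lie furthest below 0 with a median of -2.15, and the oocyte regulators lie wholly below 0 with a median of -0.56.

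Within each treatment no gene passed the test on 2 libraries against 2. Within water 0 of 14196 genes were called (0%), 848 had an unadjusted p below 0.05 and DESeq2 called 110. The smallest adjusted p, 0.266 by edgeR, was shared by scl-20, vet-6 and ceh-51. Within ethanol0.05 0 genes were called (0%), 681 had an unadjusted p below 0.05 and DESeq2 called 22, and the smallest adjusted p, 0.710 by edgeR, was shared by dct-8, T05A8.3, abf-2 and col-60. All 55 genes called in the 8 libraries had the same sign in water and in ethanol0.05. This was all but fixed in advance, since in each of them every F3 library lay on 1 side of every F1 library. The difference between the treatments in the F3 to F1 change was tested as an interaction, which called 0 genes (0%), with 85 at an unadjusted p below 0.05 and 1 called by DESeq2.

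The interaction's smallest p belonged to flp-11 (chromosome X, 4677334 to 4678129), a neuropeptide gene known for its part in sleep. It had 17.5 and 27.04 CPM in F3 ethanol0.05 libraries, against 35.8 and 91.1 CPM in F1 ethanol0.05 libraries. In the water libraries it had 72.6 and 75.4 CPM in F3, against 22.9 and 31.0 CPM in F1. The log2 change was -1.53 in ethanol0.05 and 1.45 in water, and the unadjusted p of the interaction, 0.000512 by edgeR, was 1.00 after adjustment.

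Where the transcripts lay was read from 23 clusters of nuclei. Cluster 19, which has 277 nuclei, held 12.7% of the cht-1 UMIs of F3 libraries and 27.7% of those of F1 libraries. For C35E7.5 it held 19.9% in F3 and 42.7% in F1 libraries, for C08F1.6 30.2% and 36.9%, and for cav-1 12.61% and 21.97%, F3 before F1 in each pair. The neighbours F56D6.8 and dct-8 were elsewhere, with 0.386% of F3 and 1.28% of F1 UMIs of F56D6.8 in cluster 19. For fbxb-10 the cluster held 40% of F3 and 62.7% of F1 UMIs, and for fbxb-66 40% and 53.6%. Called genes with a larger part there in F3 were fbxb-71 (47.4% against 29.4% in F1), fbxb-75 (41.7% against 25.6%), fbxb-18 (61.9% against 59.3%) and fbxb-119 (25.8% against 23.6%). The cluster itself averaged 0.982% of the nuclei of F3 and 2.09% of those of F1 libraries. The rest of each gene's UMIs lay in other clusters, and whether those came from free RNA was not tested. Without the nuclei of cluster 19, an alternative chosen after seeing the data, 52 genes were called (8 higher, 44 lower), 44 of them among the 55, and the median of the fbxb, fbxc, sdz and vet families was -1.69. Of the higher genes, col-60 had 50.9% of its F3 and 62.2% of its F1 UMIs in cluster 2, which is led by collagen genes. F07G6.10 had 49.2% of F3 and 46.7% of F1 UMIs in cluster 3, which is led by uterine and other secreted protein genes. With the libraries of a generation pooled, col-60 had 799 CPM in F3 and 629 CPM in F1 within cluster 2. F07G6.10 had 958 CPM in F3 and 512 CPM in F1 within cluster 3. These levels, and the percentages of UMIs per cluster, weight each library by its depth and carry no spread between libraries. Water F3 replicate 1 was the deepest, with 25500166 UMIs.

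In nuclei grouped by class, some of the fallen genes were called in several classes, 4 collagen genes rose in neuron-like nuclei, and in body wall muscle-like nuclei 3 collagen genes rose and 3 fell. Counts were summed per library and class in 7 classes named by their markers and in 10 clusters kept by number, and 144 of 96787 pairs of gene and class passed an adjusted p below 0.05 (0.149%, edgeR, adjusted over all pairs), 54 higher and 90 lower. These covered 96 genes in 14 classes. DESeq2 called 669 pairs, and with edgeR the count without 1 library was 56 without ethanol0.05 F3 replicate 1, 23 without water F3 replicate 1, 47 without water F3 replicate 2, 70 without ethanol0.05 F1 replicate 1, 277 without ethanol0.05 F1 replicate 2 and 46 without water F1 replicate 1. In 38 of the 144 pairs the gene was also one of the 55. The gene cav-1 was called in 7 of 12 classes tested and had a log2 change below 0 in all 12, and cht-1 was called in 6 of 8 and was below 0 in all 8. The named higher genes, col-60, C14E2.12, F07G6.10, gst-28, pept-1 and F07A11.5, were each called in 0 classes, with a log2 change above 0 in every class tested. All these genes were named from sums of the same libraries, of which the classes are parts, so a shared direction was largely fixed in advance. Whether free RNA spread their UMIs over the classes was not tested. The gene F56D6.9, next to F56D6.8 and with the whole-library levels 13.4, 65.8, 22.7 and 51.4 CPM in F3 libraries against 157, 177, 179 and 257 CPM in F1 libraries (edgeR adjusted p = 0.0581), was called in 8 of 15 classes.

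The germline-like class joins 3 clusters, 1 found by mitotic to pachytene markers and 2 by oocyte markers, and held 13 called genes, 3 higher and 10 lower. In it cht-1 had 12.4, 9.62, 7.87 and 3.97 CPM in F3 libraries, against 109, 29.8, 97.6 and 55.9 CPM in F1 libraries (log2 change -3.17 ± 0.455, edgeR adjusted p = 0.0157). Of the fbxb, fbxc, sdz and vet families, the only member called in a tested class was sdz-28, in this class. It had 3, 1, 2 and 2 counts in F3 libraries against 7, 15, 20 and 8 counts in F1 libraries. Cluster 19 held too few nuclei to be tested, with 11 in F3 ethanol0.05 replicate 2 and 18 and 19 in the F3 water libraries, where 20 were needed. The families were therefore not tested within that cluster. The higher genes were ddo-2, with 244, 118.6, 313 and 181 CPM in F3 libraries against 31.8, 65.0, 71.4 and 82.7 CPM in F1 libraries, ZK470.2 and C30E1.9. The gene C30E1.9 had a log2 change above 0 in all 17 classes, and ddo-2 in 13 of 17, with the germline-like class the only call for each.

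In neuron-like nuclei all 6 called genes were higher, and 4 of them are collagens (col-81, col-129, col-139 and col-12). The gene col-81 had 3764, 3397, 3720 and 2229 CPM in F3 libraries, against 611, 1053, 640 and 660 CPM in F1 libraries, a log2 change of 2.14 ± 0.233 (edgeR adjusted p = 0.0106). It was above 0 in all 17 classes, with F3 means of 977 to 4737 CPM and F1 means of 330.2 to 2445 CPM, and in epidermis-like nuclei, where cuticle collagens are made, it had 2272 ± 793 CPM in F3 and 1581 ± 2506 CPM in F1 libraries (SD, n = 4 each). In whole libraries col-81 had 2291, 3074, 2967 and 2056 CPM in F3, against 557, 1023, 468 and 1798 CPM in F1, with a log2 change of 1.46 ± 0.390 (edgeR adjusted p = 0.138). Over all classes 22 of 1353 tested collagen pairs were called, 17 higher and 5 lower, in 13 genes, and whether these UMIs in neuron-like and muscle-like nuclei are free RNA was not tested.

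Body wall muscle-like nuclei had 25 called genes, 6 higher and 19 lower. The collagens went both ways, with col-12, col-39 and col-149 higher and the more abundant col-95, col-101 and col-143 lower. The gene col-95 averaged 1405 ± 235 CPM there in F3 and 4595 ± 1189 CPM in F1 libraries, col-101 averaged 4927 ± 557 CPM in F3 and 9533 ± 1137 CPM in F1, and col-143 averaged 4238 ± 508 CPM in F3 and 7700 ± 466 CPM in F1 (SD, n = 4 each), with log2 changes of -1.71, -0.95 and -0.86 (edgeR adjusted p = 0.00471 for col-95, 0.0298 for col-101 and 0.0358 for col-143). The collagen gene col-12 had 549, 481, 525 and 436 CPM there in F3 libraries, against 130, 284, 187 and 234 CPM in F1 libraries (log2 change 1.24 ± 0.204, edgeR adjusted p = 0.0329). The gene F56D6.9 had 29.4, 77.5, 35.3 and 71.5 CPM in F3 libraries, against 301, 426, 274 and 315 CPM in F1 libraries, a log2 change of -2.62 ± 0.264 (edgeR adjusted p = 0.00385). In pharyngeal muscle-like nuclei 3 genes fell, F56D6.8, C28C12.4 and F14H12.3, and C28C12.4 had 184, 204, 213 and 158 CPM in F3 libraries, against 635, 553, 574 and 412 CPM in F1 libraries. In intestine-like nuclei H43E16.1 rose, with 6, 12, 24 and 34 counts in F3 libraries against 3, 6, 6 and 3 counts in F1 libraries, and F33H12.7 fell, with 0, 0, 5 and 6 counts in F3 libraries against 8, 13, 54 and 13 counts in F1 libraries. No gene was called in the epidermis-like class (192 at an unadjusted p below 0.05, edgeR), in the coelomocyte-like class (17) or in cluster 17 (240).

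The share of nuclei in each class did not pass a test. Germline-like nuclei made up 11.3% ± 1.46 of F3 and 13.7% ± 1.84 of F1 libraries (SD, n = 4 each, exact permutation within treatment, p = 0.167), and pharyngeal muscle-like nuclei 7.04% ± 1.78 of F3 and 5.55% ± 1.34 of F1 libraries (exact permutation p = 0.333). The smallest unadjusted p was that of cluster 6, which made up 5.51% ± 1.16 of F3 and 4.38% ± 0.805 of F1 libraries (exact permutation p = 0.0556), and among nuclei with at least 1000 UMIs its difference was 0.114 percentage points. Clusters 2, 17 and 19 had an exact permutation p of 0.111. Among nuclei with at least 1000 UMIs the exact permutation p was 0.0556 for clusters 17 and 19 and 0.167 for cluster 2. The differences there were -0.782 percentage points for cluster 17, -1.35 for cluster 19 and 2.90 for cluster 2. The smallest adjusted p over 21 classes was 0.583, and with 36 arrangements within treatment no share could reach 0.05. Permutation over all 8 libraries, which could reach 0.0286, gave a smallest p of 0.0857 and a smallest adjusted p of 0.540.

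Batches 4 and 5 hold F3 and F1 worms in separate batches, so there generation and batch cannot be told apart, and their values are a description only. Of the 48 lower genes, 47 had a lower mean in the 6 F3 water and ethanol0.05 libraries of batch 4 than in the 6 F1 libraries of batch 5, where 46.2% of all genes tested did, and the exception was his-24. In 23 of the 48 the batch 4 libraries lay wholly below those of batch 5 (6.86% of all genes). Of the 7 higher genes 7 had a higher mean (53.8% of all genes), and 5 lay wholly above (11.9%). Summed fbxb levels were 96.9 to 192 CPM in batch 4 F3 libraries and 269 to 395 CPM in batch 5 F1 libraries, and summed oocyte markers were 2666 to 3244 CPM in batch 4 F3 and 3971 to 6766 CPM in batch 5 F1 libraries.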

How the data were processed

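Nuclei of whole worms were sequenced in droplets, and the deposited UMI counts per gene and nucleus were made by the authors with Cell Ranger on genome build ce10, per the submitters' processing notes (software version 3.0.2 per the file headers). No source used here gives strand or further filters. From these counts the 8 batch 2 libraries were summed per library and tested with edgeR 4.0.16 in R 4.3.3 (TMM scaling, filterByExpr, quasi-likelihood test on generation with treatment as covariate, Benjamini-Hochberg over all genes tested). Standard errors are the log2 change divided by the square root of F. CPM use TMM-scaled library sizes for single genes and raw totals for sums over lists. DESeq2 1.42.0 was an alternative. Gene positions came from the WBcel235 annotation (Ensembl release 115), which matched 13768 of 13786 genes tested.

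The code for edgeR was tested on simulated data. For classes, likely doublets (497 of 20757 nuclei, scrublet in scanpy 1.11.5) were removed and the rest clustered with leidenalg 0.10.2 at resolution 1.0 after Harmony alignment of libraries. A class needed at least 20 nuclei in every library, and counts were summed per library and class.

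Genes were named where the adjusted p was below 0.05, a generation averaged at least 20 CPM and the generations did not overlap, up to 12 per direction (3 per class), and called list members could be named, up to 6 per list. Other names were chosen after their values were seen. The libraries and lists were chosen with earlier results of these data known, and the cluster naming rule, the list of early zygotic regulators and the list of the fbxb, fbxc, sdz and vet families were set after seeing values. UMIs bound the precision at 4395179 to 25500166 per library. Ranges over libraries stand in place of counting intervals. Batches 1 and 3 were not used here, and batches 4 and 5 only as a description. No column of per-sample values was left out.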

Additional observations from a re-analysis of the deposited data

Results flagged for a closer look

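In 82 groups of 4 libraries examined, 1 library stood apart from the other 3 beyond Dixon's critical value in 2 cases, and chance gives about 1 in 20 such groups. The ribosomal RNA share of water F3 replicate 2 was 1.33% of UMIs, against 0.353% to 0.431% in the other F3 libraries, a gap of 0.919 of the whole range. Its part in the comparison was measured by leaving the library out, which left 1 called gene, and by removing mitochondrial and ribosomal RNA genes. That removal left 7 genes higher and 48 lower. The level of F07A11.5 in ethanol0.05 F3 replicate 1 was 46.0 CPM, against 41.3 to 42.0 CPM in the other F3 libraries, a gap of 0.855 of a narrow range, and every F3 library stayed above every F1 library.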

How the results depend on the processing

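The 8 libraries gave 7 genes higher and 48 lower in F3. In the same order, higher then lower, the counts were 184 and 316 with DESeq2, 463 and 630 with no filter on low counts, 63 and 239 with all 26 water and ethanol libraries in 1 fit, 26 and 131 without the treatment covariate, 5 and 27 with counts thinned to the shallowest library, 11 and 46 with robust dispersion, and between 0 and 38 and between 0 and 148 with single libraries left out. Among alternatives chosen after seeing the data they were 1716 and 1654 with replicate number 1 alone, 0 and 0 with number 2 alone, and 2 and 24 without shared barcodes. A stricter filter, DESeq2's size factors, removal of doublets and removal of mitochondrial and ribosomal RNA genes gave 6 to 10 higher and 43 to 48 lower. With a replicate block on the number the counts were 186 and 368, and with a block on treatment and number 155 and 317. Over 6657 genes, the deviations of same-numbered libraries had r = 0.51 between F3 and F1 in ethanol0.05 and -0.01 in water, 0.78 between F1 groups, -0.06 between F3 groups, 0.53 between F3 ethanol0.05 and F1 water and 0.13 between F3 water and F1 ethanol0.05. As 2 of these 6 were not above 0.1 and no label says what a number marks, the numbers were not taken to pair the libraries. Cell barcodes did group by number, with 159 to 233 shared per pair of number 1 libraries and 13 to 18 per pair of number 2 libraries. Pairs of differently numbered libraries shared 0 to 3. The main test holds no block for this grouping.

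Within water, where 0 genes were called, DESeq2 called 110, no filter 404 and the replicate block 102. Within ethanol0.05 the counts were 22 with DESeq2, 283 with no filter and 0 with the replicate block, and for the interaction 1, 37 and 0. With single libraries left out these 3 comparisons called 0 genes. The 144 pairs of gene and class became 669 with DESeq2, 2710 with no filter, 938 with the replicate block and 23 to 277 with single libraries left out. Over the 27 lists, 3 members were higher and 6 lower, against 30 and 31 with DESeq2, 96 and 81 with no filter, 9 and 19 with all 26 libraries, 8 and 15 without the covariate, 1 and 3 thinned, 229 and 151 with number 1 alone, 0 and 0 with number 2 alone, 30 and 42 with the replicate block on the number, 27 and 32 with the block on treatment and number, 0 higher without shared barcodes, and 0 to 18 higher and 0 to 14 lower with single libraries left out. No call of a named gene or named pair reversed, but some list medians and share differences changed sign. The vitellogenin median was -0.07 with all libraries and 0.36 with replicate number 2 alone. For body wall muscle-like nuclei the share difference was -0.704 percentage points with all libraries and 0.263 without ethanol0.05 F1 replicate 1. Of 432 values of named genes in whole libraries 280 stayed past the threshold and 152 did not, and of 724 named pairs 454 stayed and 270 did not. Of 231 class shares 228 moved by less than the spread between libraries. The cause of these changes was not tested.

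With 2 libraries per group, permutation within treatment cannot bring a share of nuclei below 0.0556, and F3 libraries were sequenced to higher totals in water. Scarce family members rest on single counts in F3 libraries.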
